A study of Mus musculus with 9 samples.

Results

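A set of 10 genes of the endoplasmic reticulum (ER) calcium store were examined in cultured mouse podocytes. They were the SERCA pump genes Atp2a2 and Atp2a3, the IP3 receptor genes Itpr1, Itpr2 and Itpr3, the calcium sensor genes Stim1 and Stim2, and the plasma membrane channel genes Orai1, Orai2 and Orai3. The genes were chosen by symbol, all 10 were found among the 55385 genes of the table, and all 10 passed the filter on low counts that left 17680 genes for testing. The choice was made with earlier results of these data known, and which values bore on it is not recorded. The counts and p-values of these genes are therefore given as a description and are not used as independent evidence about the set.

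RNA sequencing was done on 9 libraries of a podocyte line that the labels name MCP5, with wild-type genotype in every library. Podocytes are the epithelial cells that wrap the glomerular capillaries of the kidney. In the control group 3 libraries came from untreated cells (treatment "blank"). In the high glucose group 3 libraries came from cells given glucose at 50 mmol/L, and in the AGEs group 3 came from cells given advanced glycation end products, which are proteins modified by sugars, at 400 µg/mL. The labels give neither a treatment time nor separate cultures, and an osmotic control and a carrier protein control are not analysed here, so the p-values here speak to library-to-library spread alone, and that spread may be technical. Total counts ran from 46284878 (high glucose library 2) to 77242281 (high glucose library 1). The cells are 1 line, and of 18 podocyte markers 13 passed the filter. Foxc2 and Lmx1b had 0 counts in all 9 libraries, and 6 of the 18 were below a mean of 1 CPM (CPM, counts scaled to library size with TMM factors).

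SERCA pumps move calcium from the cytosol into the ER. Receptor signalling through phospholipase C makes IP3, which opens IP3 receptors and lets that calcium out. When the store runs low, STIM proteins in the ER membrane sense the loss and open ORAI channels in the plasma membrane, which is called store-operated entry. Chaperones of the ER need calcium, so a poorly filled store is a classical trigger of the unfolded protein response. In podocytes, calcium entry acts on the actin cytoskeleton and on calcineurin.

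The genes lie at separate places on GRCm38, per the deposited table. Atp2a2 (ENSMUSG00000029467) is on chromosome 5 from 122453513 to 122502174, minus strand. Atp2a3 (ENSMUSG00000020788) is on chromosome 11 from 72961169 to 72993044, plus strand. Itpr3 (ENSMUSG00000042644) is on chromosome 17 from 27057304 to 27122223, plus strand. Stim1 (ENSMUSG00000030987) is on chromosome 7 from 102267806 to 102437319, plus strand. Itpr1 and Itpr2 are both on chromosome 6, Stim2, Orai1 and Orai2 on chromosome 5, and Orai3 on chromosome 7. All are protein-coding, and 8 of the 10 have the same start, end and strand in GENCODE release M21 (all but Atp2a2 and Itpr2). Other annotated genes that overlap them had at most 60 counts over the 9 libraries, against 10670 to 647853 for the 10 genes, so few counts were assigned to overlapping genes.

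Promoter sequences were found in RefSeq (GRCm38.p6) for 8 of the 10 genes, the exceptions being Atp2a2 and Itpr1. The 250 bases before the RefSeq start site are printed for the 3 genes among them that differed between high glucose and control, because these are the regulatory sequences next to the changes described below. Capitals mark GGGCGG (the GC box bound by Sp1-type factors), CCAAT and CCACG on either strand. The regions are chr11:72960919-72961168 (plus strand) for Atp2a3, chr17:27057054-27057303 (plus strand) for Itpr3 and chr7:102267569-102267818 (plus strand) for Stim1, whose RefSeq start lies downstream of the start in the deposited table, so that the end of this window falls inside the gene as located above.
Atp2a3: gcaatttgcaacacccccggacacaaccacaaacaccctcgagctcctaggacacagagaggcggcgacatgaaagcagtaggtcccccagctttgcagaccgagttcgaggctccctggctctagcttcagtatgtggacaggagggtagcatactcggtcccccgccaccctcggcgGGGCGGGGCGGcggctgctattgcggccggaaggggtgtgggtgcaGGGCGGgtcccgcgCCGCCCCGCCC
Itpr3: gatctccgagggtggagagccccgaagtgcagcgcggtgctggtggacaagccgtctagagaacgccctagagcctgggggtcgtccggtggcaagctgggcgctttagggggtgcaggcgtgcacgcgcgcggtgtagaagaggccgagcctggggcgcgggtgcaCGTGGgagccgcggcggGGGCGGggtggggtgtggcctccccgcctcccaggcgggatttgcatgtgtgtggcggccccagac
Stim1: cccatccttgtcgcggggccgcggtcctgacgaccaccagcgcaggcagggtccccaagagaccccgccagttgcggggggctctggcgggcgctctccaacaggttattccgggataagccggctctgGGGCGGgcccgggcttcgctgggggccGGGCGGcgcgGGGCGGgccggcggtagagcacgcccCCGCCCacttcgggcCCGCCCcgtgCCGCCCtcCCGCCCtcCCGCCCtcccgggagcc

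These 3 windows are rich in G and C, at 66.8% in Atp2a3, 72.0% in Itpr3 and 78.4% in Stim1, against a median of 52.4% over 32817 RefSeq promoter windows of the same length. GGGCGG matched 5 times in the Atp2a3 window, 8 times in that of Stim1 and 1 time in that of Itpr3. It was found in 8 of the 8 windows and in 32.7% of all windows. The 8 windows ran from 57.2% G and C (Orai3) to 78.4% (Stim1), all above the median of all windows. The shares over all windows given here were not matched for G and C content. CCACG was found in 6 of 8 (28.3% of all) and CCAAT in 4 of 8 (33.8% of all), and both are parts of the ER stress element. The whole ER stress element, CCAAT and CCACG with 9 bases between, was in 0 of the 8 windows and in 0.113% of all. The variant known as ER stress element II was in 0 of 8 (0.0305% of all), the unfolded protein response core TGACGTG in 0 of 8 (1.65%) and the C/EBP-ATF element TGATGNAA in 0 of 8 (3.45%). Both strands were searched, the whole element contains the shorter CCAAT and CCACG, and the 3 strings marked in capitals were chosen after the first search. A match or its lack describes these letters in this window only.

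In untreated cells the pump Atp2a2 was by far the most abundant of the 10. Its level was 202 ± 5.39 FPKM (mean ± SD, n = 3; FPKM are fragments per transcript length and library size, the scale used here to compare levels between genes). Orai1, the main store-operated channel of many cells, came next at 10.96 ± 1.20 FPKM, then Itpr3 at 8.75 ± 0.40 and Orai3 at 6.94 ± 0.55 FPKM. Orai2 (5.16 ± 0.13 FPKM) and Atp2a3 (5.03 ± 0.36 FPKM) overlapped between libraries, and so did Stim1 (1.60 ± 0.52 FPKM) and Itpr2 (1.11 ± 0.05 FPKM). Stim2, with 3.31 ± 0.60 FPKM, lay above Stim1 in every control library, and Itpr1 was lowest at 0.943 ± 0.035 FPKM. Atp2a2 thus made up 97.6 ± 0.14% of the SERCA sum, and Itpr3 81.0 ± 1.04% of the IP3 receptor sum. In high glucose Itpr3 took the second place in the order, at 16.7 ± 1.43 FPKM, and Atp2a3 went from place 6 to place 8.

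The question of the first comparison is which of these genes differ after high glucose. Both pump genes were lower in high glucose than in control, while the receptor gene Itpr3 and the sensor gene Stim1 were higher. By the edgeR quasi-likelihood test, 4 of the 10 genes were called at an adjusted p under 0.05 over all genes tested, 2 higher and 2 lower. Over all 17680 genes tested, 39.3% were called in this comparison (19.6% higher and 19.7% lower), so the share of the 10 that was called is near the background. The median log2 fold change was 0.15 for the 10 genes and 0.03 for all genes.

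**Figure D1:**
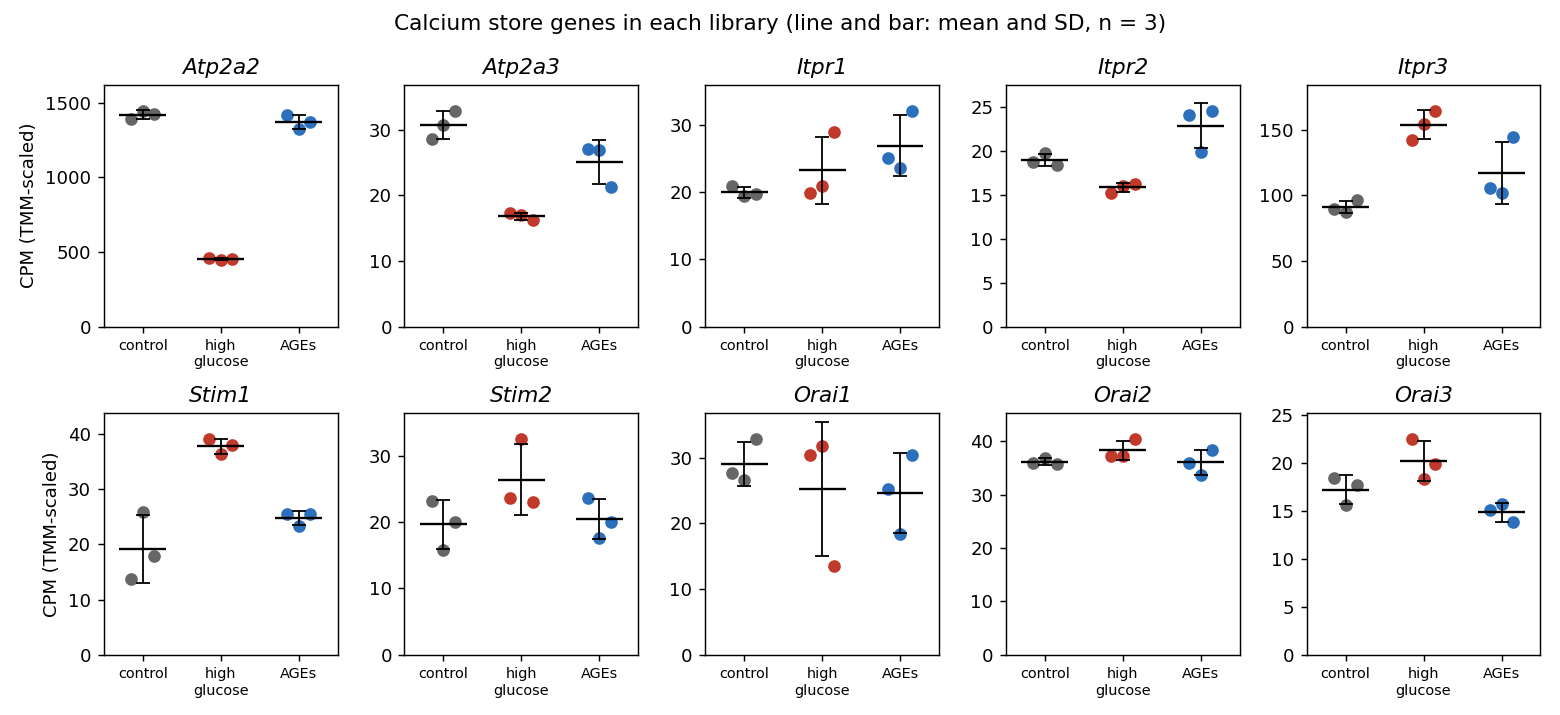
Level of each of the 10 genes in each library, in CPM with TMM factors on axes that start at 0. Points are libraries, lines are means and bars are SD over 3 libraries. The 3 high glucose libraries of Atp2a2 sit between 447.3 and 460.6 CPM, below the control range of 1390 to 1446 CPM, and 1 high glucose library of Orai1 sits at 13.54 CPM, below the others.

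Atp2a2 encodes SERCA2, the pump found in nearly all cells. It was at 1390, 1446 and 1425 CPM in the control libraries and at 460.6, 447.3 and 455.2 CPM in the high glucose libraries. The high glucose libraries were all below the control libraries and close to each other. The log2 fold change was −1.64 (SE 0.055, 95% interval −1.77 to −1.52), a 3.13-fold lower level with an adjusted p of 1.99e-07 by edgeR. No other of the 10 genes differed by as many standard errors in this comparison.

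Atp2a3 encodes SERCA3, a pump of lower calcium affinity found mainly in blood, endothelial and epithelial cells. Its control libraries were at 28.57, 30.74 and 32.91 CPM and its high glucose libraries at 17.31, 16.96 and 16.20 CPM. The groups did not overlap, and the log2 fold change was −0.87 (SE 0.12, adjusted p = 0.000353 by edgeR). The third SERCA gene, Atp2a1, the pump of fast skeletal muscle, was at 0.535 ± 0.118 CPM in control and is not among the 10.

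Itpr3 encodes the type 3 IP3 receptor, a calcium release channel common in epithelia. Control libraries were at 89.94, 87.37 and 96.39 CPM and high glucose libraries at 142.4, 154.5 and 164.5 CPM. Every high glucose library was above every control library, and edgeR gave a log2 fold change of 0.75 with SE 0.13 and an adjusted p of 0.00149. Itpr2, the type 2 receptor, went the other way without passing the threshold. Its libraries were at 18.70, 19.73 and 18.44 CPM in control and at 15.23, 16.06 and 16.28 CPM after glucose (edgeR log2 fold change −0.26, 95% interval −0.50 to −0.02, adjusted p = 0.0869 by edgeR). The groups of Itpr2 did not overlap in CPM, as in 54.1% of all genes tested, but did in FPKM (control library 3 at 1.072, high glucose library 3 at 1.083), and limma on log2(FPKM + 1) gave a difference of −0.04. Itpr1, the type 1 receptor, overlapped between the groups, at 20.95, 19.40 and 19.71 CPM for control and 19.87, 20.96 and 29.03 CPM after glucose, where library 3 was the high one. Its log2 fold change was 0.22 (95% interval −0.16 to 0.59, adjusted p = 0.346), and 0.03 without high glucose library 3.

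Stim1 encodes the ER calcium sensor that opens ORAI channels. It was at 13.79, 25.83 and 17.92 CPM in control and at 39.09, 36.39 and 37.94 CPM in high glucose. The control libraries were spread over a wider range than the high glucose libraries, and the groups did not overlap. The log2 fold change was 0.98 (SE 0.19, 95% interval 0.54 to 1.41, adjusted p = 0.00312 by edgeR), and leaving out 1 library at a time gave 0.79 to 1.26. Stim2, the more sensitive sensor of small changes in the store, was at 23.21, 15.84 and 19.95 CPM in control and at 23.60, 32.51 and 22.97 CPM in high glucose. Its groups overlapped, and edgeR gave a log2 fold change of 0.42 with SE 0.19 and an adjusted p of 0.107. In control, the library with the most Stim1 (library 2) had the least Stim2, and the one with the least Stim1 (library 1) had the most Stim2. In high glucose, library 2 had the least Stim1 and the most Stim2. In AGEs, library 1 had the most of both (25.48 and 23.61 CPM) and library 2 the least of both (23.37 and 17.59 CPM). The summed STIM level varied less than either gene in control, at 4.91 ± 0.11 FPKM. In AGEs its SD of 0.618 FPKM was above those of Stim1 (0.0949) and Stim2 (0.528).

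None of the ORAI genes was called in high glucose against control. Orai1 was at 27.75, 26.66 and 32.86 CPM in control and at 30.43, 31.84 and 13.54 CPM in high glucose. Only high glucose library 3 was low, and with it the log2 fold change was −0.20 (95% interval −0.88 to 0.47, adjusted p = 0.641 by edgeR), without it 0.10. Orai2 was the steadiest in control, at 35.99, 36.96 and 35.72 CPM, and stood at 37.25, 37.28 and 40.45 CPM after glucose (log2 fold change 0.08, 95% interval −0.11 to 0.27, adjusted p = 0.486). The groups of Orai2 did not overlap in CPM, as in 54.1% of all genes tested. Orai3, an ORAI paralog of mammals, was at 18.40, 15.55 and 17.65 CPM in control and at 22.46, 18.27 and 19.83 CPM in high glucose, with overlap (log2 fold change 0.23, 95% interval −0.03 to 0.50, adjusted p = 0.154). On the deposited FPKM scale, high glucose libraries lay 0.18 higher against control on the log2 scale than with TMM-scaled CPM. With limma on log2(FPKM + 1), which differs in both scale and test, Orai2, Orai3 and Stim2 were called higher (log2 differences 0.22, 0.36 and 0.48), so that 7 of the 10 passed. The parts of the scale and of the test in these calls were not separated.

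**Figure D2:**
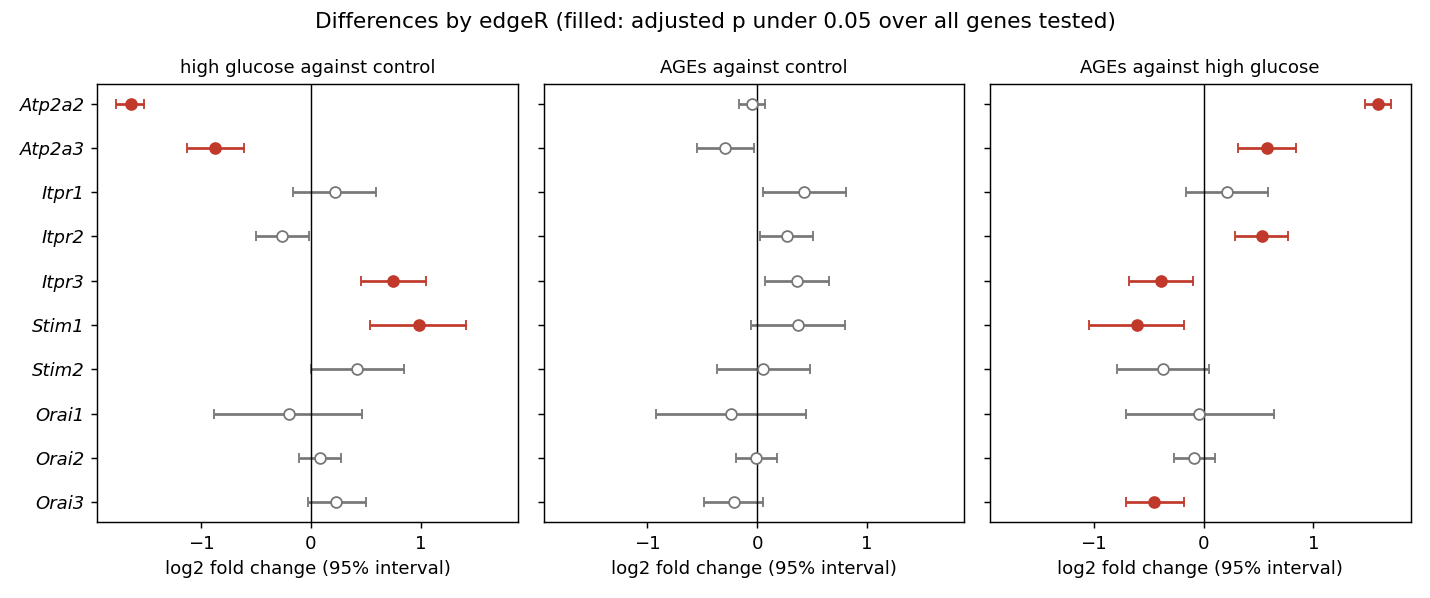
Log2 fold change of each of the 10 genes in the 3 comparisons by edgeR, with 95% intervals. Filled points passed an adjusted p under 0.05 over all genes tested, which 4 genes did in high glucose against control, 0 in AGEs against control and 6 in AGEs against high glucose.

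The make-up of the families was compared as a share of the summed FPKM within a library, which no scaling between libraries touches. An exact two-sided permutation test of 3 against 3 libraries cannot give a p under 0.1. Atp2a3 took 2.43 ± 0.14% of the SERCA sum in control and 4.08 ± 0.14% in high glucose, with no overlap (exact permutation p = 0.1). Itpr3 took 81.0 ± 1.04% of the IP3 receptor sum in control and 88.0 ± 0.69% in high glucose, and Itpr2 10.3 ± 0.73% and 5.53 ± 0.25%, both without overlap (exact permutation p = 0.1). Stim1 took 32.7 ± 11.1% of the STIM sum in control and 41.9 ± 5.42% in high glucose, with overlap (exact permutation p = 0.2). Orai1 took 47.5 ± 2.58% and 40.0 ± 11.4% of the ORAI sum, also with overlap (exact permutation p = 0.4). The SERCA sum itself went from 207.1 ± 5.60 to 76.1 ± 0.67 FPKM, a log2 ratio of −1.44, or −1.62 when the FPKM were rescaled with the TMM factors. The IP3 receptor sum went from 10.8 ± 0.35 to 18.95 ± 1.73 FPKM (log2 ratio 0.81, or 0.63 rescaled) and the STIM sum from 4.91 ± 0.11 to 8.58 ± 0.96 FPKM (0.81, or 0.63 rescaled). The ORAI sum overlapped between the groups, at 23.1 ± 1.37 and 26.1 ± 3.98 FPKM.

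**Figure D3:**
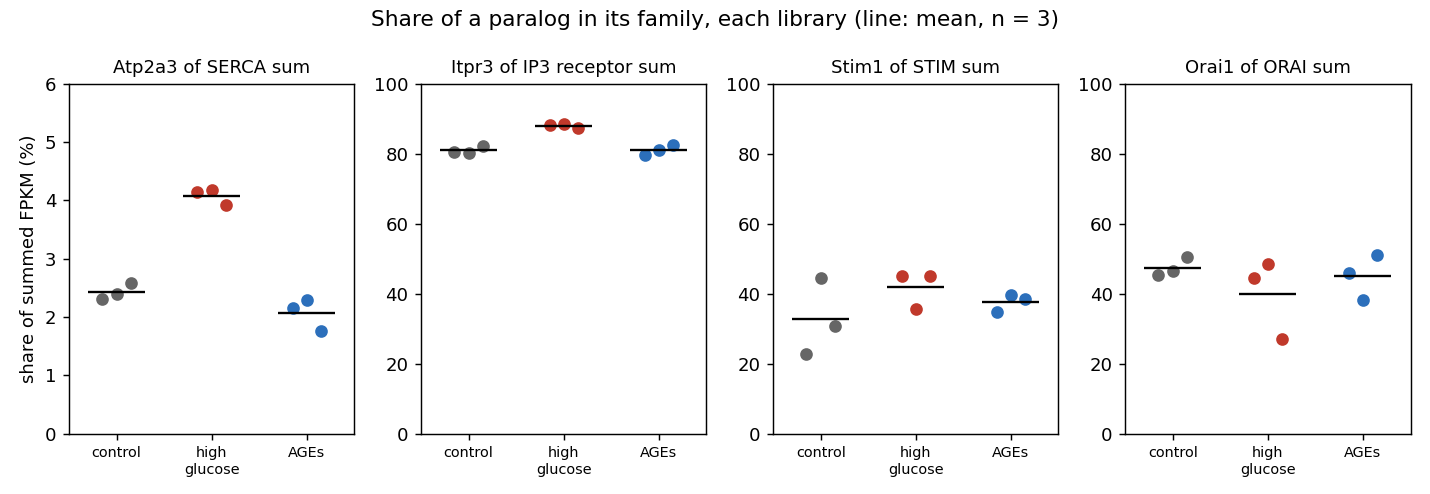
Share of 1 paralog in the summed FPKM of its family in each library, in percent, with the mean of 3 libraries as a line; the axis of Atp2a3 ends at 6%, the others at 100%. Itpr3 lies between 87.19 and 88.51% in high glucose and between 80.23 and 82.18% in control, and the shares of Stim1 and Orai1 overlap between the groups.

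The genes whose levels over the 9 libraries were most like Atp2a2 (Pearson r of log2(CPM + 1), 13221 other genes with a mean of at least 1 CPM) were Pdia4, an ER disulfide isomerase, with r = 0.998, Adpgk, an ADP-dependent glucokinase, with r = 0.998, and Edem1, a lectin of ER-associated degradation, with r = 0.998. Their log2 fold changes in high glucose were −2.19, −1.33 and −1.52. Those most like Itpr3 were Mex3b, an RNA-binding protein (r = 0.986), Nes, an intermediate filament (r = 0.981), and Sh3bp2, an adaptor protein (r = 0.978), with log2 fold changes of 1.03, 1.43 and 0.77. The 9 libraries share the same 3 groups, so these values mostly restate the group differences and are a description.

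Other genes of calcium handling were taken from 10 lists of textbook members. Of 139 tested in high glucose against control, 37 rose and 30 fell by edgeR (19.6% and 19.7% of all genes, the shares against which the list counts below can be read), with a median log2 fold change of 0.00. The list counts come from the fit with all 9 libraries, and some calls in several lists were lost under the alternatives. Tmx1, a SERCA regulator named here as an example, was lower in that fit but no longer passed without control library 1 (adjusted p = 0.0698 by edgeR). Among the calcium buffers and sensors of the ER lumen, 9 of 18 fell and 3 rose. Calr, the calcium-binding chaperone calreticulin, fell from 14590 ± 864 to 3137 ± 232 CPM (log2 fold change −2.22, adjusted p = 8.92e-07). The disulfide isomerases Pdia4 and Pdia6 fell by 2.19 and 1.39 on the log2 scale. Among SERCA regulators 4 of 8 fell, with Wfs1, an ER membrane protein, at −0.85, and 1 rose, Ckap4 at 0.95. Calr and the chaperone Canx belong to both of these lists. The regulators of the unfolded protein response, counted apart, had 14 of 16 lower and 0 higher, with the stress-induced factor Ddit3 falling from 1672 ± 18.7 to 47.3 ± 3.96 CPM.

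Release and its control were mixed. Of 13 other release or leak genes tested, a list that also holds endolysosomal channels, 6 fell and 2 rose. Among them the lysosomal channel Mcoln1 fell by 1.21 and the translocon subunit Sec61a1 by 0.56 on the log2 scale. The 2 that rose, named after their values were seen, were the endolysosomal channel Tpcn1 (1.15) and the ER membrane protein Tmbim6 (0.37). Ryr2, the cardiac ryanodine receptor, named here after its values were seen, had 0 counts in all 9 libraries. In these libraries 3 counts would be 0.0362 to 0.0591 CPM, a floor that covers counting error only. The value describes Ryr2 alone and not the ryanodine receptors as a family. Of 19 IP3 receptor regulators 4 fell and 3 rose. Erlin1, an ER membrane protein that directs activated IP3 receptors to degradation, fell from 321.6 ± 19.1 to 91.3 ± 5.43 CPM (log2 fold change −1.82, adjusted p = 5.32e-07). Erp44, a lumenal protein that binds the type 1 receptor, fell by 0.49, and Itpkb, a kinase that consumes IP3, rose by 1.17 on the log2 scale. Of 11 phospholipase C genes 4 rose and 0 fell, with Plcd1 at 1.73, Plch1 at 1.04 and Plcb3 at 0.40.

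On the entry side, 5 of 19 regulators of STIM and ORAI rose and 4 fell. Saraf, which switches store-operated entry off, fell from 209.9 ± 7.69 to 103.6 ± 3.64 CPM (log2 fold change −1.02, adjusted p = 7.14e-06). Selenok, a selenoprotein of the ER membrane, fell by 0.93, and the tetraspanin Tspan18 rose by 1.78 on the log2 scale. Of 11 other entry channels tested 5 rose and 2 fell. The T-type channel gene Cacna1g rose from 5.42 ± 0.92 to 68.2 ± 12.5 CPM (log2 fold change 3.65, adjusted p = 8.51e-05), the P/Q-type gene Cacna1a was at 1.52, and the ATP-gated channel P2rx4 fell by 0.92. Cacna1a had a low level, 1.09 ± 0.42 CPM in control, and its difference was 0.21 with limma on log2(FPKM + 1). Trpc6, a podocyte channel mutated in hereditary glomerular disease and named here after its values were seen, had 0 counts in all 9 libraries.

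Of 7 plasma membrane and Golgi export genes 3 rose and 0 fell. Atp2b4, a plasma membrane calcium pump, went from 0.544 ± 0.304 to 6.58 ± 1.08 CPM (log2 fold change 3.59, and 0.55 to 4.06 over the alternatives). The Golgi pump Atp2c1 (0.42) and Tmem165 (0.30), a Golgi membrane transporter, were called too. Atp2c1 no longer passed when control library 3 (0.0505) or glucose library 3 (0.0513) was left out, as adjusted p. Tmem165 no longer passed without control library 2 or 3 or high glucose library 1 or 2 (adjusted p = 0.0611 to 0.0897). Of 15 mitochondrial calcium genes 2 fell and 1 rose, with the chaperone Hspa9 at −1.23, Ghitm at −1.21 and the sodium-calcium exchanger Slc8b1 at 0.69. Of 20 genes of calcineurin and NFAT signalling 10 rose and 1 fell, with a median of 0.53. Calm3, a calmodulin gene, rose from 118.1 ± 2.04 to 232.3 ± 7.50 CPM (log2 fold change 0.98, adjusted p = 1.40e-05), the transcription factor Nfatc1 rose by 0.80, and the kinase Camk2d fell by 0.91.

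**Figure D4:**
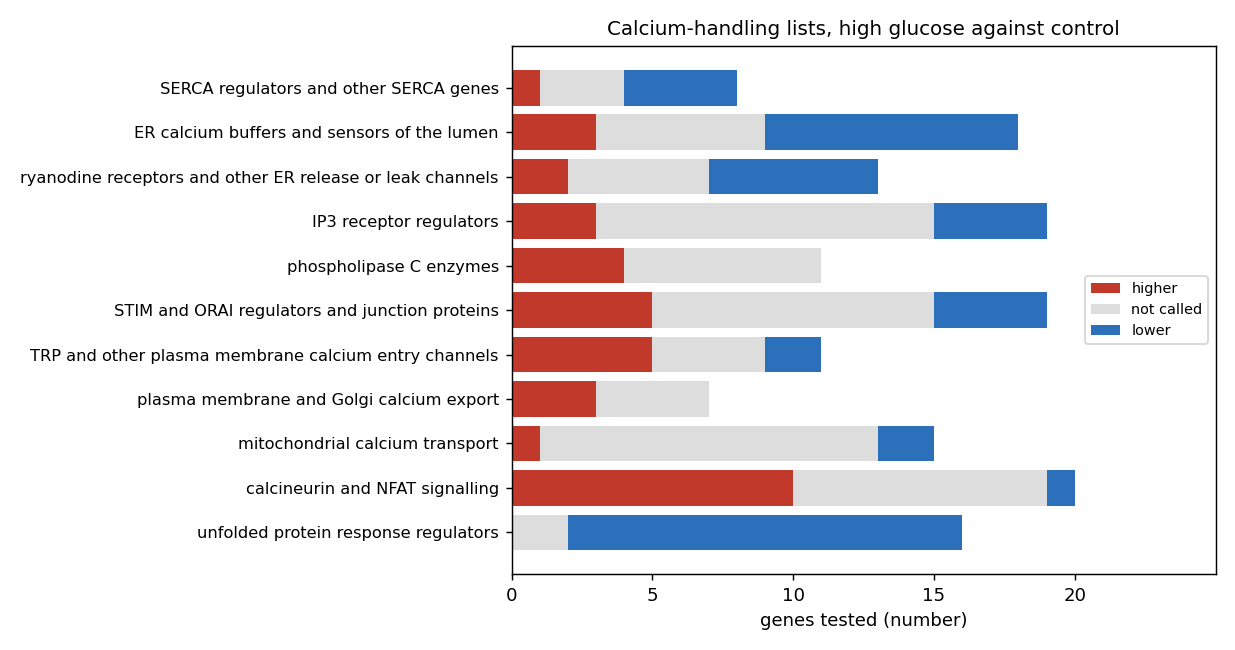
Number of genes tested in each calcium-handling list, and in the list of unfolded protein response regulators, that were higher, lower or not called in high glucose against control by edgeR. The 10 genes named at the start are left out of the lists; 9 of 18 lumenal buffer and sensor genes were lower, and 10 of 20 calcineurin and NFAT genes were higher.

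Marker genes of further cell types were summed in the same way. Their counts of calls can be read against 19.6% higher and 19.7% lower over all genes tested in high glucose against control. Of 8 parietal epithelial markers 4 rose and 1 fell in high glucose, and their summed level ran from 1060 to 1100 CPM in control and from 1970 to 2210 CPM in high glucose. Of 8 tubular markers 4 were tested and 3 rose (123 to 126 CPM, then 356 to 397 CPM), with Aqp2, Slc34a1 and Umod at 0 counts throughout. Of 8 leukocyte markers 6 were tested, 2 rose and 1 fell (77.7 to 87.1 CPM, then 133 to 144 CPM). Of 8 endothelial markers 3 were tested and 2 rose (5.55 to 5.85 CPM, then 12.4 to 15.1 CPM), and of 8 mesangial and fibroblast markers 7 were tested and 2 rose (37.3 to 40.4 CPM, then 55.3 to 62.0 CPM). A mean below 1 CPM was found for 5 tubular, 6 endothelial, 5 leukocyte and 3 mesangial and fibroblast markers. Those sums rest mainly on the other markers of each list. Of the 13 podocyte markers tested 4 rose and 1 fell (1010 to 1330 CPM, then 1310 to 1390 CPM). In the AGEs libraries the sums were 1020 to 1250 CPM for parietal, 122 to 158 CPM for tubular and 1440 to 1520 CPM for podocyte markers. Muscle markers, relevant to Atp2a1 and the ryanodine receptors, summed to at most 15.9 CPM in any library, with Myh6, Myh7 and Myod1 at 0. The libraries come from 1 cell line, so these sums describe marker genes and do not show that other cell types were present. Any link between the markers and the changes of the 10 genes was not tested. In bulk RNA a shift in cell make-up and a change per cell cannot be told apart.

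The second comparison asks which of the genes differ after AGEs. None of the 10 was called against control by edgeR, by DESeq2 or by limma, and 0.0848% of all genes were called by edgeR (0.0509% higher and 0.0339% lower). At an unadjusted p under 0.05, 4 of the 10 passed by edgeR and 4 by DESeq2, against 12.4% of all genes by edgeR. These were the 3 IP3 receptor genes and Atp2a3. Their groups did not overlap in CPM, which also held for 19.2% of all genes tested.

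Itpr3 was at 105.9, 101.5 and 144.5 CPM in AGEs, all above the control libraries (log2 fold change 0.36, 95% interval 0.07 to 0.65, adjusted p = 0.343 by edgeR). Itpr1 was at 25.14, 23.60 and 32.12 CPM (0.43, 95% interval 0.05 to 0.81, adjusted p = 0.365), and Itpr2 at 24.15, 19.95 and 24.59 CPM (0.27, 95% interval 0.03 to 0.51, adjusted p = 0.370). In CPM the AGEs libraries of Itpr1 and Itpr3 stood above every control library, also in FPKM, whereas Itpr2 overlapped in FPKM (AGEs library 2 at 1.154, control library 2 at 1.161). None of these differences passed after adjustment. AGEs library 3 was the highest of its group for Itpr1, Itpr2 and Itpr3, and without it their log2 fold changes were 0.28, 0.22 and 0.18. Atp2a3 was at 27.16, 26.90 and 21.27 CPM in AGEs, where library 3 was the low one (−0.29, 95% interval −0.55 to −0.03, adjusted p = 0.375), and without that library the value was −0.19.

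The other 6 genes overlapped between AGEs and control. Atp2a2 was at 1416, 1321 and 1369 CPM, with a log2 fold change of −0.05 (95% interval −0.17 to 0.07, adjusted p = 0.724 by edgeR). Stim1 was at 25.48, 23.37 and 25.45 CPM, inside the wide control range (0.37, 95% interval −0.06 to 0.80), with 0.18 without control library 1 and 0.65 without control library 2. Stim2 was at 23.61, 17.59 and 20.01 CPM and Orai2 at 36.00, 33.77 and 38.41 CPM, with log2 fold changes of 0.05 and −0.01. Orai1, at 25.20, 18.33 and 30.37 CPM, and Orai3, at 15.04, 15.66 and 13.78 CPM, gave −0.24 (95% interval −0.92 to 0.44) and −0.21 (95% interval −0.48 to 0.05). AGEs library 2 of Orai1 was below all control libraries, and without it the value was −0.07, against −0.14 without control library 3 and −0.42 without AGEs library 3. The interval of Atp2a2 is narrow enough to leave out a change of the size seen with high glucose, whereas that of Orai1 spans changes in both directions. Of the 139 other calcium-handling genes, 0 were called by edgeR. At an unadjusted p under 0.05 by edgeR 19 of them passed, close to the share of 12.4% over all genes tested. DESeq2 called 3, all higher, namely Ahcyl1 (adjusted p = 0.00435), Atp2b1 (adjusted p = 0.0492) and Nfatc3 (adjusted p = 0.0209), and limma on log2(FPKM + 1) called 0.

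The third comparison sets AGEs directly against high glucose. By edgeR 6 of the 10 genes differed, 3 higher and 3 lower in AGEs, against 39.9% of all genes (19.7% higher and 20.2% lower). It uses the same high glucose libraries as the first comparison, so the values stand side by side and are not a second measurement. Atp2a2 was 3.01-fold higher in AGEs (log2 fold change 1.59, SE 0.055, adjusted p = 2.28e-07) and Atp2a3 1.49-fold higher (0.58, adjusted p = 0.00353). Itpr2 was higher by 0.53 (adjusted p = 0.00356) without overlap between the groups, as in 52.5% of all genes, and its call was lost with limma on log2(FPKM + 1) (adjusted p = 0.0798).

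Orai3, Stim1 and Itpr3 were lower in AGEs than in high glucose. Orai3 fell by 0.45 on the log2 scale (SE 0.12, adjusted p = 0.0139 by edgeR), with AGEs libraries at 13.78 to 15.66 CPM and high glucose libraries at 18.27 to 22.46 CPM, and it no longer passed once glucose library 1 was removed (adjusted p = 0.0583). Stim1 fell by 0.61 (adjusted p = 0.0301) without overlap, but leaving out any 1 of the 6 libraries gave an adjusted p from 0.0588 to 0.0907. Itpr3 fell by 0.39 (adjusted p = 0.0377) with overlap, and it no longer passed without glucose library 2 or 3 or AGEs library 1 or 2 (adjusted p = 0.0870 to 0.129) and with only these 2 groups in the fit (adjusted p = 0.0727). Itpr1, Stim2, Orai1 and Orai2 were not called, with log2 fold changes of 0.21, −0.37, −0.04 and −0.09. Of the 139 other calcium-handling genes 40 were higher and 42 lower in AGEs than in high glucose, against 19.7% and 20.2% of all genes.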

How the data were processed

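The authors deposited 1 table with a whole-number count and an FPKM value per gene and library, per the file headers. RNA was extracted with TRIzol, per the labels' protocols. cutadapt 1.9, FastQC and GRCm38 are named in the submitters' processing notes; the aligner, counting tool, annotation release and strand setting were not given in the sources used here. Counts were fitted as deposited with edgeR 4.0.16 in R 4.3.3 (filterByExpr, TMM factors, glmQLFit and glmQLFTest, 9 libraries in 1 fit with 3 group means). Tests were two-sided, p-values were adjusted by Benjamini-Hochberg over 17680 genes, and intervals come from the F statistic. DESeq2 1.42.0, limma 3.58.1, other scalings and filters, a replicate block and leaving out each library were the alternatives. Scripts were tested on simulated counts with planted changes and a smaller common spread than was estimated in these data. That tests the code alone and does not measure how well small changes would be found here. The 10 genes and the gene lists were chosen with earlier results of these data known. All 10 genes are named, with up to 3 called genes per list by smallest p in high glucose against control and the 3 genes most like the top gene in each direction. A gene that this rule would name among the release and leak genes is not reported here. For a symbol with 2 identifiers (Ddit3 and Sept2) the one with more counts was used. Count depth was similar across groups except for high glucose library 2, so low counts are least precise there.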

Additional observations from a re-analysis of the deposited data

How the results depend on the processing

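Each result was compared with its alternatives under a rule for its kind. Counts of calls were kept if close in number, and log2 fold changes if direction and side of the threshold held. Family sums and shares were kept if they stayed within the spread. By these rules 822 were kept, 19 moved, 10 newly passed, 14 no longer passed and 8 log2 fold changes changed sign. A share that changed sign within the spread was counted as kept. The Orai1 share in AGEs against high glucose, at 5.02 percentage points, reached −1.47 with 1 library left out. The 4 calls in high glucose against control held in all alternatives run. With limma on log2(FPKM + 1) and log2(FPKM + 0.1), 7 of the 10 genes were called there, adding Stim2 (0.48 and 0.58), Orai2 (0.22 and 0.25) and Orai3 (0.36 and 0.40). In AGEs against high glucose the same settings added Stim2 (−0.45 and −0.54) and Orai2 (−0.24 and −0.28) and lost Itpr2 (0.18 and 0.30). The deposited FPKM carry a log2 shift of 0.18 in high glucose against control relative to TMM, and the median of all genes was 0.08 and 0.17 under these settings. Only the 2 groups compared in the fit gave −0.40 for Itpr3 in AGEs against high glucose. Leaving out 1 library at a time in that comparison gave −0.57 to −0.29 for Itpr3, −0.64 to −0.57 for Stim1 and −0.51 to −0.36 for Orai3. Orai1 ran from −0.34 to 0.16 there, changing sign without high glucose library 1 (0.12) or 2 (0.16) or AGEs library 2 (0.14), and from −0.40 to 0.10 in high glucose against control. In AGEs against control Stim2 ran from −0.08 to 0.19, with −0.08 without control library 2 and −0.06 without AGEs library 1. Orai2 ran from −0.05 to 0.04 there, with 0.01 without control library 2 and 0.04 without AGEs library 2. Over all genes, AGEs against control gave 15 calls by edgeR and 325 by DESeq2 (196 higher and 129 lower), which also called 3 calcium-handling genes. With the replicate block 5 genes were called there. To see whether the library numbers pair libraries across groups, the group mean of each gene was subtracted from its log2(CPM + 1). These deviations from the group mean, not the levels themselves, were correlated between libraries of different groups. Same-numbered libraries gave −0.15 to 0.08 over 9 pairs and differently numbered ones −0.14 to 0.15 over 18. The numbers were therefore not taken to pair the libraries. The summed SERCA ratio was −1.62 in high glucose against control and 1.56 in AGEs against high glucose, both with CPM and with FPKM rescaled by the TMM factors. The rescaled FPKM, chosen after seeing the data, gave 0.63 for the IP3 receptor sum and 0.63 for the STIM sum in high glucose against control, and CPM gave 0.57 for the IP3 receptors. Shares from CPM, which weight long transcripts more, differed from control by 1.45 percentage points for Atp2a3, −3.39 for Itpr1, −6.34 for Itpr2 and 9.73 for Itpr3 in high glucose. Between AGEs and high glucose they differed by 4.15 for Itpr1, 5.60 for Itpr2 and −9.75 for Itpr3. The cause of these changes was not tested.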
